A study of Mus musculus with 12 samples.

Results

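The genes described here are those of the chemokines, the interleukins and their receptors. They were chosen by symbol alone: every gene in both count tables whose name begins with Ccl, Cxcl, Ccr, Cxcr or Il and a digit, or with Cx3c. The rule took 142 genes of 23337: 24 CC chemokines, 14 CXC and CX3C chemokines, 19 chemokine receptors, 44 interleukins and their antagonists, and 41 chains of interleukin receptors. RNA came from peeled urothelium, the epithelial lining of the bladder and urinary tract stripped from the wall below it, of 12 mice with 3 in each of 4 groups. The groups were Stag2-WT and Stag2-KO mice killed 1 week after a TMX diet began (TMX is taken to mean tamoxifen), and Stag2-WT and Stag2-KO mice killed 1 month after it. All 4 groups, the WT mice included, ate this diet, which lasted a week. The strain, the age and sex of the mice, the Stag2 allele and the Cre driver that TMX would act on are not given in the sources used here.

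Chemokines are small secreted proteins that bind receptors coupled to G proteins and draw leukocytes along a gradient. Interleukins are secreted cytokines whose receptors pair a specific chain with a shared chain, such as Il6st, and signal through Jak and Stat proteins or, in the Il1 and Il17 families, through adaptors that lead to NF-kB. Epithelia such as the urothelium make several of both, and macrophages and other leukocytes that lie in or under an epithelium make and receive others. Stag2, on the X chromosome, encodes part of cohesin, a ring-shaped complex that shapes chromatin loops and keeps sister chromatids together.

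Total counts per library ran from 5580961 to 9497088. By total count, 3 counts, taken as the limit of detection, correspond to 0.316 to 0.538 CPM, the count scaled to a fixed library size. With the TMM scaling of library sizes used for the levels below, they correspond to 0.311 to 0.613 CPM. Stag2 stood at 108 to 154 CPM in WT and 61.1 to 76.2 CPM in KO at 1 week, and at 46.4 to 61.9 CPM in WT and 19.3 to 38.0 CPM in KO at 1 month, so each KO library lay below every WT library of its time. Whether the reads fall in the deleted part of the gene is not given. Urothelial markers were abundant in every library, with a summed level of 2620 to 7540 CPM for the basal list and 5990 to 25800 CPM for the luminal list, and fibroblast markers summed to 3400 to 13400 CPM. Xist, made by female cells, had 6392 to 10406 counts in the KO libraries of 1 week and at most 13 in the WT libraries of that time, so genotype and this sign of sex cannot be told apart at 1 week. At 1 month it had 7764 counts in KO replicate 3 and at most 28 in the other 5 libraries. Replicate 3 of each genotype made up batch 3, so genotype and this sign of sex cannot be told apart within that batch either. KO replicate 3 of 1 week stood apart from the other libraries of its time, with Spearman correlations across genes of 0.689 to 0.809.

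Of the 142 genes, 21 were listed at 0 in all 12 libraries, 45 had 1 to 29 reads in all, and 76 had 30 or more. Only 21 reached a mean of 10 CPM over the 12 libraries. Among those listed at 0 were the type 2 cytokines Il4 and Il13, Il17a and Il17c of the IL-17 family, the alarmin Il1a, and the chemokine Ccl20. Each count of 0 allows a TMM-scaled level of up to 0.311 to 0.613 CPM in a library and covers counting error only. Ccl21a, Ccl21b, Ccl21c, Ccl27b and Il11ra2 were also at 0, but these have near-identical copies, and how reads shared between copies were counted is not given. The classic inducible chemokines were close to the limit too: over 12 libraries Cxcl1 had 3 reads, Cxcl2 had 6, Cxcl5 had 2 and Ccl2 had 11, and the acute-phase cytokine Il6 had 6 reads, all in KO replicate 2 of 1 week. The monocyte chemokine Ccl2, the neutrophil chemokines Cxcl1, Cxcl2 and Cxcl5, and Il6 were therefore at or near the limit of detection in both genotypes.

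A 3′ end library yields about 1 read position per transcript, so CPM can be set side by side between genes without division by length. On that scale Il17re had the highest mean of the 142 genes over the 12 libraries. It encodes the receptor chain for Il17c and is known from epithelia, and its mean was 235.8 CPM. Cxcl14, a chemokine that epithelia make without stimulation, followed at 196.1 CPM. The order of these 2 held in WT, while in KO Cxcl14 had the higher mean, with 216.5 CPM beside 173.6 CPM at 1 week and 329.6 CPM beside 254.8 CPM at 1 month. At 1 week this did not hold in every KO library: replicate 1 had 251 CPM of Il17re and 166 CPM of Cxcl14. KO replicate 3 of 1 week, with 43.7 CPM, lowered the mean of Il17re. Il11ra1, the receptor chain for Il11, had 112.2 CPM, Cxcl12, a stromal chemokine, had 80.9 CPM, and Il6st, the chain shared by receptors of the Il6 family, had 66.6 CPM. After these came the receptor chains Il4ra at 54.6 CPM and Il1r1 at 46.1 CPM and the membrane-bound chemokine Cxcl16 at 44.1 CPM. The alarmin Il33 had a mean of 42.9 CPM, carried by 264 CPM in KO replicate 2 of 1 week, with 5.48 to 89.1 CPM in the other 11 libraries. Receptor chains of interleukins were the class with the highest sum in every library, at 596 to 1085.6 CPM, while the 24 CC chemokines together had 30.1 to 181 CPM.

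**Figure D1:**
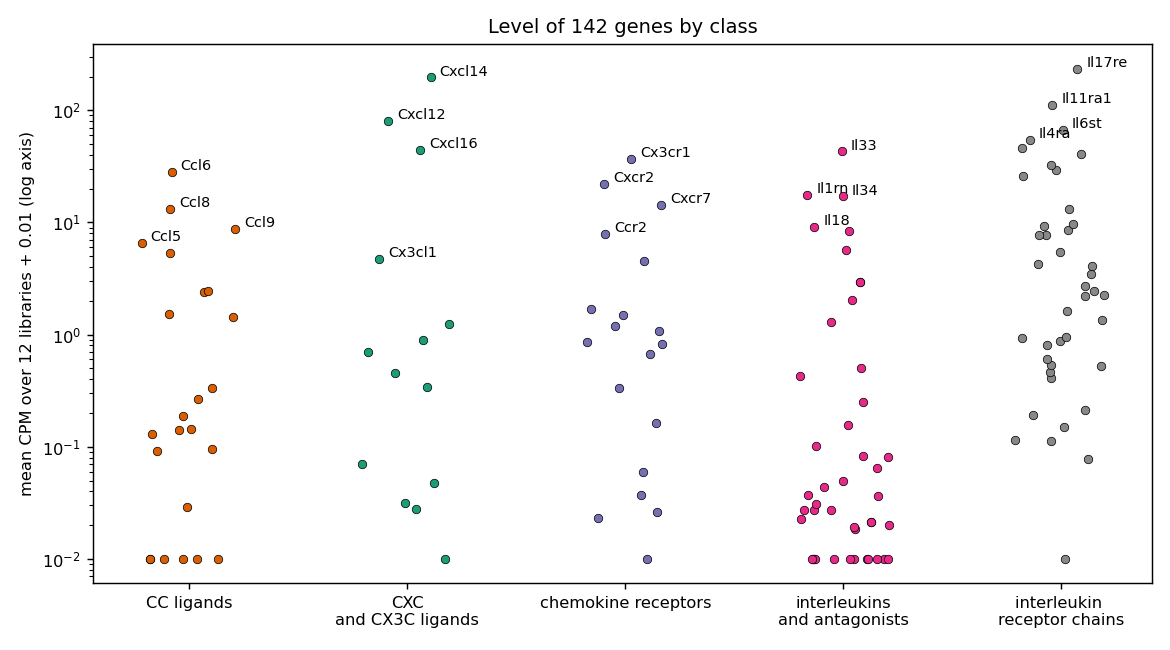
Mean CPM over the 12 libraries plus 0.01 (vertical, logarithmic axis) of all 142 genes, by class (horizontal axis), with the 21 genes at 0 on the bottom line. Each point is 1 gene, its sideways place within a class means nothing, and Il17re, Cxcl14 and Il11ra1 stand at the top, each above 100 CPM.

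At 1 week, none of the 55 genes with enough reads for a test passed an adjusted p of 0.05 in edgeR's quasi-likelihood test with Benjamini-Hochberg adjustment over all genes, where 0.0627% of 12754 genes passed. At an unadjusted p under 0.05 there were 21 of the 55 (38.2%), beside 15.5% of all genes, and 18 of the 21 were on the higher side (32.7% of the 55, beside 10.5% of all genes). A fold change above 0 was found for 34 of the 55 (61.8%), beside 51.5%. DESeq2 called 11 of the genes at 1 week, 9 higher and 2 lower in KO, but it also called far more of all genes than edgeR did. The groups did not overlap, with KO above WT, for 18 of the 55 genes (32.7%), beside 14.1% of all genes, and with KO below WT for 5 (9.09%), beside 12.5%. The median log2 fold change (KO against WT) was 0.46 over the 55 genes and 0.02 over all genes tested. The values at 1 week are therefore given as levels.

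At 1 month, 5 of 48 tested genes passed (10.4%), beside 2.22% of 12139 genes. Cxcl14 and Il17rd were higher in KO, beside 0.997% of all genes, and Ccl6, Ccl9 and Il33 were lower, beside 1.22%. Calls by class were 2 of 8 CC chemokines, both lower, 1 of 4 CXC and CX3C chemokines, higher, 0 of 6 chemokine receptors, 1 of 8 interleukins and antagonists, lower, and 1 of 22 interleukin receptor chains, higher. KO lay above WT without overlap for 4 of the 48 genes (Cxcl14, Cxcr7, Il18r1 and Il20rb), beside 5.72% of all genes, and below WT for 5 (Ccl5, Ccl6, Ccl8, Ccl9 and Il33), beside 7.58%. The median log2 fold change was -0.10 over the 48 genes and -0.01 over all genes. These calls rest on the batch term and on single libraries: without the batch term none of the 48 passed, and neither did any without WT replicate 2 or without KO replicate 1, while 8 passed without WT replicate 3 or without KO replicate 3. Without WT replicate 1 Ccl6 and Ccl9 passed, and without KO replicate 2 Ccl5, Ccl6 and Ccl9 did.

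Promoter sequences are shown for 4 of the 5 genes that passed at 1 month, because these are the genes whose RNA differed by the test, and 2 of them, Ccl6 and Ccl9, are neighbours in a cluster on chromosome 11. Each is the 250 bases before the start site in RefSeq on GRCm38.p6, read 5′ to 3′ on the strand of the gene. Capitals mark matches, on either strand, to 4 motifs. These are TATAAA, a core promoter element, TTCNNNGAA, bound by STAT proteins, TGANTCA, a loose AP-1 motif with any middle base, and the NF-kB motif. Of 32851 promoters of this length, 12.4% hold the first, 7.02% the second, 6.75% the third and 7.25% the NF-kB motif. Ccl6 lies at chr11:83593088-83593337 (minus strand), Ccl9 at chr11:83578637-83578886 (minus strand), Cxcl14 at chr13:56296552-56296801 (minus strand) and the second listed start of Il33 at chr19:29945540-29945789 (plus strand).
Ccl6: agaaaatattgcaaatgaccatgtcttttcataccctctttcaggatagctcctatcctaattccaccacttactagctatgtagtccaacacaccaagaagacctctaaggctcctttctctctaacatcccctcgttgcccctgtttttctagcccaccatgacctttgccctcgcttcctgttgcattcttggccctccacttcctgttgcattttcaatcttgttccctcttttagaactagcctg
Ccl9: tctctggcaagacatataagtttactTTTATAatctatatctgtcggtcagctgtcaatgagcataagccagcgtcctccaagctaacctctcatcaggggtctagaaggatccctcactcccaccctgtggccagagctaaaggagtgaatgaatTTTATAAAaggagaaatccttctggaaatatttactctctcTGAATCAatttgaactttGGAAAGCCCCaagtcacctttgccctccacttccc
Cxcl14: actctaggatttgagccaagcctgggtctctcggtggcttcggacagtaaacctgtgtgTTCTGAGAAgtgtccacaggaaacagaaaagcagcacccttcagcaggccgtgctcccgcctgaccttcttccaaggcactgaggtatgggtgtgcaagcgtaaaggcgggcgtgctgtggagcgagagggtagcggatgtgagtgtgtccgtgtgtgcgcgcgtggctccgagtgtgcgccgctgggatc
Il33: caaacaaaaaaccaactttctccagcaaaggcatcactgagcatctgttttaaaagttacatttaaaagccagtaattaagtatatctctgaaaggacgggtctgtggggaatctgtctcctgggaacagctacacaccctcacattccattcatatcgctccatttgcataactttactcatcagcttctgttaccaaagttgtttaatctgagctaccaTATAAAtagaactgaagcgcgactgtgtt
The window of Ccl6 held none of the 4 motifs. That of Ccl9 held 3 matches to TATAAA, of which 2 overlap, and 1 to the NF-kB motif at 35 bases. It also held 1 match to the loose AP-1 motif, as TGAATCA, that starts 53 bases before the start site. Cxcl14 had 1 STAT match at 191 bases, and Il33 had TATAAA at 29 bases before its second start. The bases that follow this second start were found as an exact run in an annotated transcript. The first listed start of Il33 (chr19:29924863-29925112 before it, not printed) had TATAAA at 203 bases. No exact run was found after it, but the annotated gene begins at 29925114, right beside it. The search therefore does not show that the first start lacks annotation. A match is a run of letters and not evidence of binding.

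Ccl6 and Ccl9 encode related CC chemokines, made by macrophages and other myeloid cells, that signal through Ccr1. Ccl6 (chr11:83587882-83593087, GRCm38, minus strand) had 32.5, 33.8 and 41.3 CPM in the WT libraries of 1 month and 11.96, 19.5 and 7.76 CPM in KO. All 3 KO libraries lay below all 3 WT libraries. Mean levels of 35.9 ± 4.76 CPM in WT and 13.1 ± 5.94 CPM in KO (SD, n = 3) gave a log2 ratio of -1.50 ± 0.31 (SE; adjusted p = 0.0302, edgeR). Within batches, the log2 difference was -1.07 in batch 2 and -2.27 in batch 3. For each gene, the batch 3 value sets 1 KO library with Xist reads against 1 WT library nearly without them. At 1 week Ccl6 had 25.8, 10.3 and 11.6 CPM in WT and 19.6, 55.3 and 69.3 CPM in KO. There the groups overlapped, and the fold change of 1.60 ± 0.57 did not pass (edgeR, adjusted p = 0.252).

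Ccl9 (chr11:83572919-83578636, minus strand) had 12.6, 15.5 and 12.7 CPM in WT and 4.44, 4.79 and 2.13 CPM in KO at 1 month. Every KO library lay below every WT library, and the log2 ratio was -1.89 ± 0.34 (SE; adjusted p = 0.0196, edgeR). Batch 2 gave -1.41 and batch 3 gave -2.13. At 1 week the levels were 4.86, 3.15 and 2.90 CPM in WT and 3.92, 12.04 and 25.6 CPM in KO, where 1 KO library lay within the WT range (adjusted p = 0.251, edgeR). Ccl3 and Ccl4, the other 2 members of this cluster besides Ccl5, had 7 and 12 reads in all. Ccr1, their receptor, had 53 reads over the 12 libraries.

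Ccl8, which lies in a second CC cluster on chromosome 11 (chr11:82115185-82116799, plus strand), is the mouse ligand of Ccr8. At 1 week it had 4.38, 1.40 and 3.11 CPM in WT and 8.38, 47.4 and 57.0 CPM in KO. At 1 month it had 6.10, 16.7 and 5.51 CPM in WT and 1.11, 2.56 and 3.65 CPM in KO. KO lay above WT at 1 week and below it at 1 month in every library. Neither fold change passed in edgeR: 3.66 ± 0.78 with an adjusted p of 0.117 at 1 week and -1.95 ± 0.56 with an adjusted p of 0.0834 at 1 month, where DESeq2 called it at both times. Ccr8 was listed at 0.

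Ccl5, a chemokine of T and NK cells, had the lower mean in KO at both times. Its levels were 19.6, 7.47 and 5.60 CPM in WT and 3.24, 1.99 and 0.204 CPM in KO at 1 week, and 11.2, 8.82 and 10.1 CPM in WT and 1.97, 6.87 and 2.28 CPM in KO at 1 month. The groups did not overlap at either time. The log2 fold changes were -2.53 ± 0.84 (adjusted p = 0.225) and -1.49 ± 0.45 (adjusted p = 0.0932) in edgeR. T cell markers summed to 3.94 to 6.19 CPM in WT and 3.20 to 8.59 CPM in KO at 1 week. At 1 month the sum was 7.56 to 12.7 CPM in WT and 6.41 to 9.74 CPM in KO. Cd3d had log2 fold changes of 1.39 and 0.55 and Cd8b1 of -0.39 and -0.25, and neither passed in edgeR. Cd8a lay below WT in every KO library at both times, but had at most 11 reads in any library, too few for a test. Cd3e, Cd3g and Cd4, also untested, overlapped at both times. The part of these markers in the result was not tested.

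**Figure D2:**
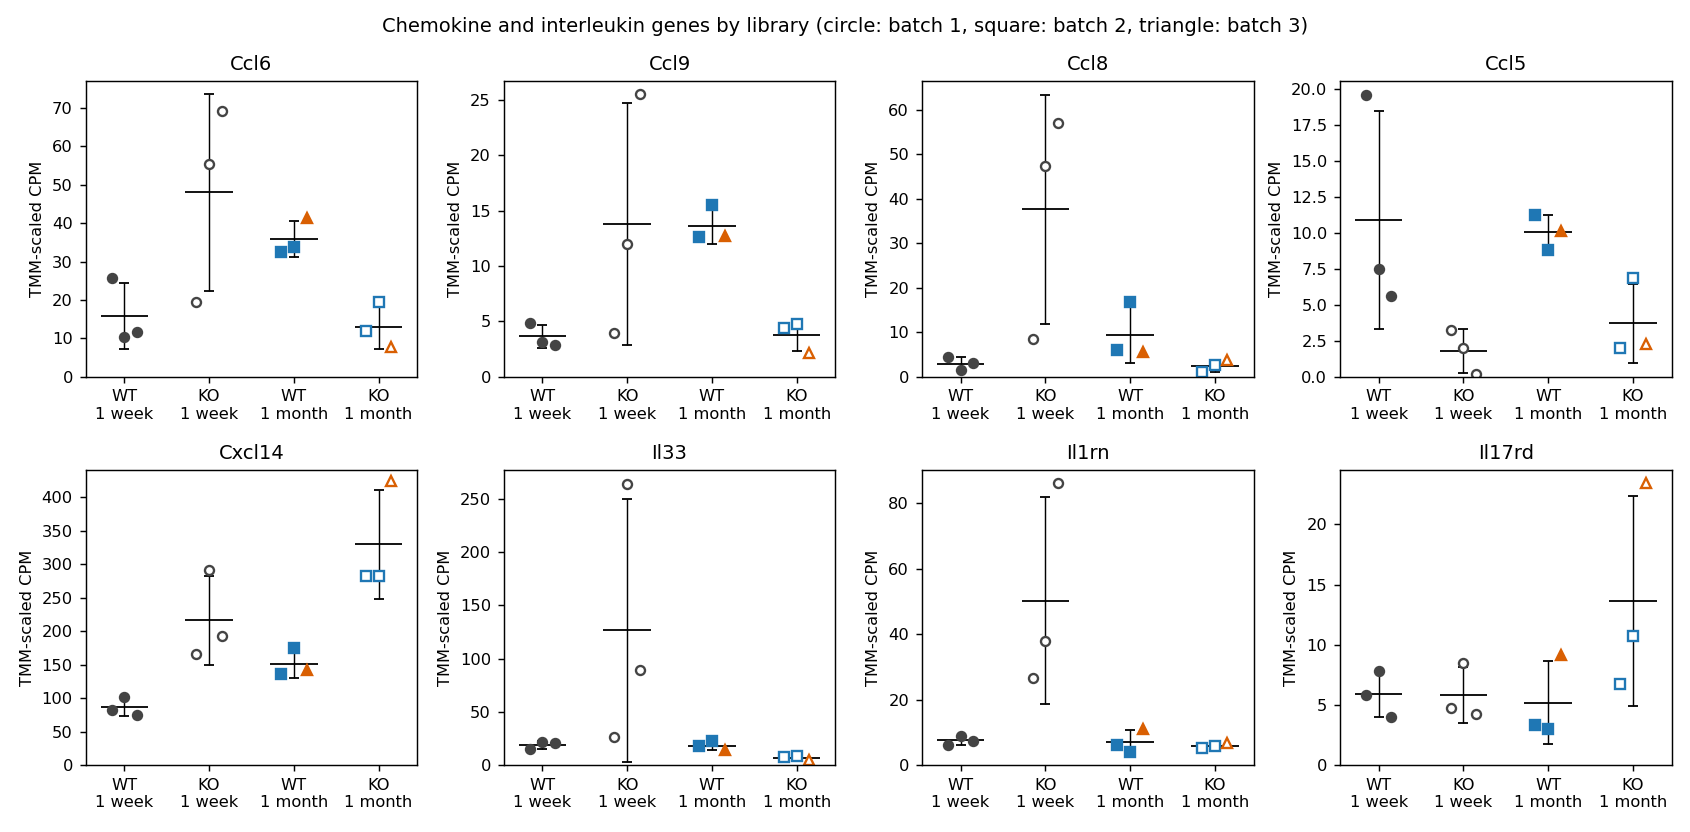
TMM-scaled CPM (vertical axis, from 0) of the genes the results turn on, in each library of the 4 groups (horizontal axis); filled points are WT, open points KO, and the line and bar are the mean and SD of 3 libraries. Ccl6, Ccl9, Ccl8 and Il33 have their highest KO points at 1 week and KO points below WT at 1 month, while Cxcl14 has KO above WT at both times.

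The sum of the macrophage markers lay on the same side of WT in KO as Ccl8 at each time, but its members did not all follow it. The 9 markers summed to 170 to 277 CPM in WT and 305 to 587 CPM in KO at 1 week, and to 721 to 1390 CPM in WT and 352 to 431 CPM in KO at 1 month. None of the 9 was at 0 in all libraries, and 4 were lower in KO at 1 month by edgeR's test: Cd74 (-1.76, adjusted p = 0.00344), C1qa (-1.95, adjusted p = 0.0121), C1qb (-1.38, adjusted p = 0.0302) and Csf1r (-1.13, adjusted p = 0.0429). At 1 week none passed, and 3 of the 9 (Csf1r, C1qa and C1qb) lay above WT in every KO library. Cd14 went the other way, with log2 fold changes of -1.71 at 1 week, where KO lay below WT, and 1.02 at 1 month (adjusted p = 0.422 and 0.262, edgeR), and at 1 week Adgre1 had -0.37 and Cd74 0.04. The part of these cells in the results for Ccl6, Ccl8 and Ccl9 was not tested. In bulk RNA, fewer cells of a type and less RNA per cell cannot be told apart.

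**Figure D3:**
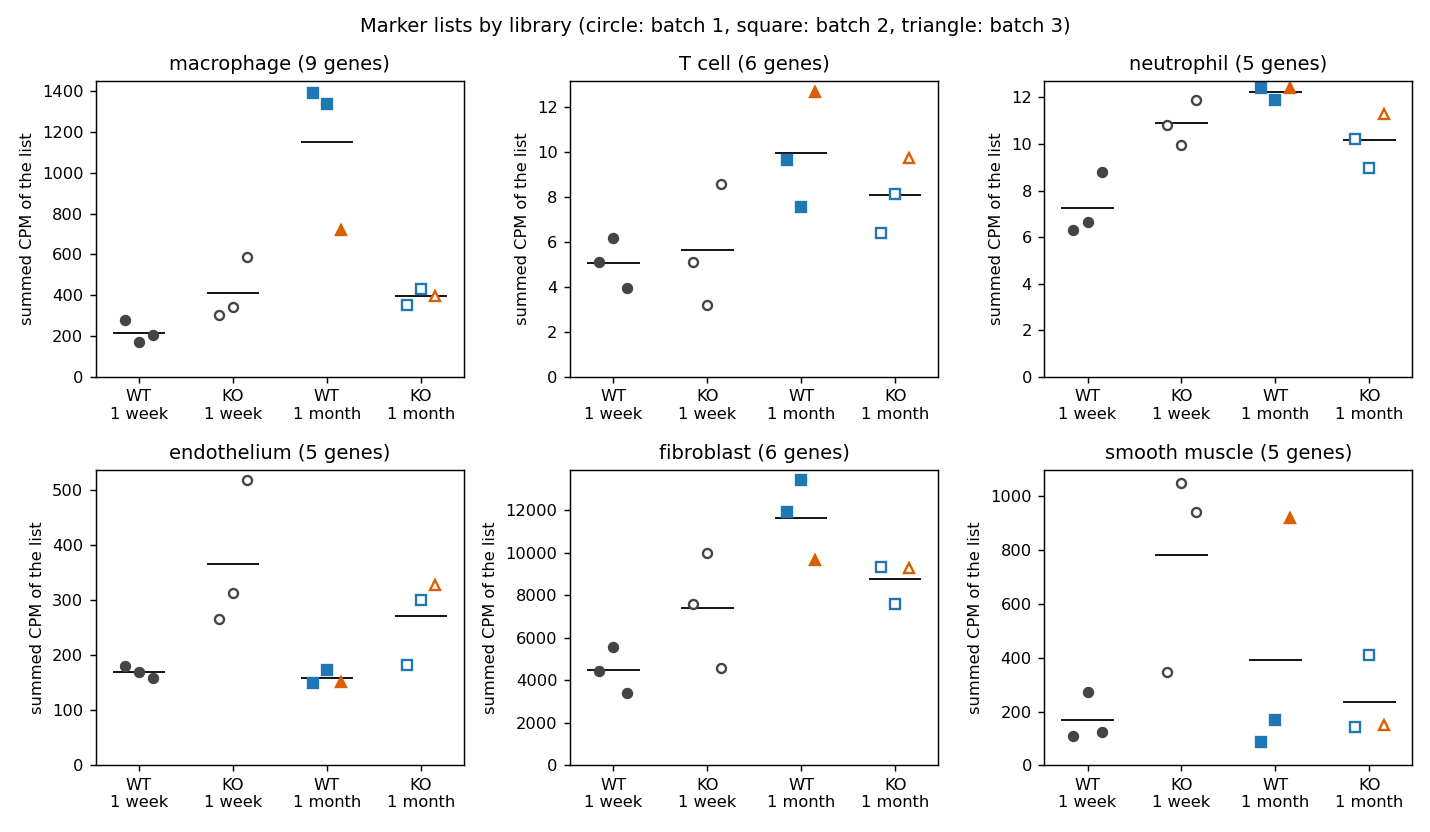
Summed CPM of the marker lists (vertical axis) in each library of the 4 groups (horizontal axis); filled points are WT, open points KO, and the line is the mean of 3 libraries. The macrophage sum in KO lies above WT at 1 week, at 305 to 587 CPM, and below it at 1 month, at 352 to 431 CPM.

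Among the CXC and CX3C chemokines, Cxcl14 (chr13:56288643-56296551, minus strand) was the gene that passed at 1 month. It had 83.3, 102 and 75.6 CPM in WT and 166, 291 and 192 CPM in KO at 1 week, and 136, 176 and 143 CPM in WT and 282, 283 and 423 CPM in KO at 1 month. Every KO library exceeded every WT library of its time. The means at 1 month, 151 ± 21.3 CPM in WT and 330 ± 81.3 CPM in KO (SD, n = 3), differed by 1.096 ± 0.23 on the log2 scale (SE; adjusted p = 0.0302, edgeR). Batch 2 alone gave 0.87 and batch 3 gave 1.56. At 1 week the fold change was 1.32 ± 0.32 and did not pass (edgeR, adjusted p = 0.138). Its effect at 1 month minus that at 1 week was -0.21 (adjusted p = 0.786, edgeR). At 1 month basal urothelium markers summed to 2620 to 4140 CPM in WT and 4090 to 6480 CPM in KO, and luminal markers to 12200 to 25800 CPM in WT and 8250 to 12300 CPM in KO, with overlap in both lists. Their part in the result was not tested.

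Cxcl16, the membrane-bound ligand of Cxcr6, had 21.6, 20.2 and 18.2 CPM in WT and 30.8, 45.3 and 67.3 CPM in KO at 1 week, without overlap. Its fold change there was 1.25 ± 0.35 (edgeR, adjusted p = 0.172), and at 1 month it was -0.18 with 51.7 to 67.9 CPM in WT and 41.7 to 57.1 CPM in KO. Cxcl12, the ligand of Cxcr4, had log2 fold changes of 0.37 (adjusted p = 0.528) and 0.46 (adjusted p = 0.356) at 1 week and 1 month in edgeR. Neither Cxcl12 nor Cxcl16 passed at either time in edgeR, while DESeq2 called Cxcl16 at 1 week. Cx3cl1, the tethered chemokine of Cx3cr1, had 0.818 to 9.59 CPM over the 12 libraries, with fold changes of -0.61 and 1.01 that did not pass. Cxcl15, a chemokine known from lung epithelium, had 11, 12 and 12 reads in WT and 2, 3 and 1 reads in KO at 1 week. Its groups did not overlap, but the fold change of -2.20 ± 0.59 did not pass (edgeR, adjusted p = 0.159), and at 1 month it had too few reads for a test, with 0, 1 and 0 in WT and 4, 11 and 7 in KO.

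No chemokine receptor passed at either time in edgeR. Cx3cr1, a receptor of monocytes and tissue macrophages, was the most abundant, with 19.6, 12.6 and 14.9 CPM in WT and 39.4, 19.99 and 30.3 CPM in KO at 1 week, and 77.5, 78.7 and 38.2 CPM in WT and 33.8, 25.2 and 50.7 CPM in KO at 1 month. KO lay above WT at 1 week, and the groups overlapped at 1 month, where batch 2 gave -1.39 and batch 3 gave 0.40. The fold changes were 0.93 (adjusted p = 0.286) and -0.81 (adjusted p = 0.191) in edgeR. The annotated gene overlaps Gorasp1, Csrnp1 and Xirp1 on the same strand, so its reads could be split or lost.

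Cxcr2, the receptor for neutrophil chemokines, had 18.6, 30.8 and 28.2 CPM in WT and 12.4, 15.3 and 7.36 CPM in KO at 1 week, and 5.71, 12.2 and 45.9 CPM in WT and 24.4, 22.8 and 39.0 CPM in KO at 1 month. KO lay below WT at 1 week and overlapped it at 1 month, and neither fold change passed (-1.14, adjusted p = 0.236, and 0.80, adjusted p = 0.231, edgeR). Neutrophil markers summed to 6.32 to 8.81 CPM in WT and 9.94 to 11.9 CPM in KO at 1 week. At 1 month they summed to 11.9 to 12.4 CPM in WT and 8.95 to 11.3 CPM in KO. Much of it came from Csf3r, the receptor for G-CSF, at 4.01 to 11.2 CPM, which overlapped between the groups at both times. S100a8 and S100a9 had at most 20 and 15 reads in any library. The part of neutrophils in the level of Cxcr2 was not tested. Cxcr7, the scavenging receptor for Cxcl12 now named Ackr3, lay higher in all KO libraries of 1 month, at 16.9 to 23.5 CPM beside 8.66 to 16.7 CPM in WT, but its fold change of 0.62 did not pass (edgeR, adjusted p = 0.236). Ccr2, the receptor of Ccl2, had 2.59 to 14.7 CPM and fold changes of -0.14 and -0.75. Cxcr4 and Cxcr6 had 130 and 140 reads in all.

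Il33 (chr19:29925114-29960718, plus strand) encodes a nuclear alarmin that epithelial and stromal cells release on damage. At 1 week it had 15.2, 21.6 and 20.7 CPM in WT and 26.5, 264 and 89.1 CPM in KO. At 1 month it had 18.1, 23.0 and 14.2 CPM in WT and 7.77, 8.95 and 5.48 CPM in KO. KO lay above WT at 1 week and below WT at 1 month in all libraries, and the 3 KO libraries of 1 week differed among themselves, with a mean of 127 ± 123.2 CPM (SD, n = 3). The fold change passed at 1 month, at -1.32 ± 0.27 (SE, edgeR, adjusted p = 0.0302; -1.20 in batch 2 and -1.23 in batch 3), and not at 1 week, at 2.72 ± 0.76 (adjusted p = 0.172). Stromal lists followed the direction of Il33 at each time only in part. Endothelial markers summed to 159 to 180 CPM in WT and 265 to 518 CPM in KO at 1 week. At 1 month they summed to 149 to 174 CPM in WT and 183 to 328 CPM in KO, so the sum in KO lay above WT at both times. At 1 month Tek (-0.21) and Vwf (-0.15) had fold changes below 0, while those of Pecam1, Cdh5 and Kdr were above 0. The fibroblast sum overlapped at 1 week, with 3400 to 5560 CPM in WT and 4560 to 9970 CPM in KO. It lay lower in KO at 1 month, with 9660 to 13400 CPM in WT and 7610 to 9350 CPM in KO. Each single fibroblast marker overlapped there. Col1a1 had -0.68, Col1a2, Col3a1 and Dcn lay slightly below 0, and Lum (0.42) and Pdgfra (0.16) lay above 0. Smooth muscle markers summed to 109 to 274 CPM in WT and 348 to 1050 CPM in KO at 1 week, where Des alone among the 5 had a fold change below 0 (-1.14), and overlapped at 1 month, with 87.0 to 918 CPM in WT and 142 to 409 CPM in KO. Their part in the levels of Il33 was not tested. With scaling by library size alone, which moved the median of all genes at 1 month to 0.22, Il33 had an adjusted p of 0.0518. Il1rl1, the receptor of Il33 known as ST2, had 1.04 to 4.28 CPM and fold changes of 0.46 and -0.43 that did not pass.

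Il1rn, the secreted antagonist of the IL-1 receptor, had the smallest adjusted p of the set at 1 week. It had 6.32, 9.11 and 7.57 CPM in WT and 26.6, 37.9 and 86.1 CPM in KO, a fold change of 2.71 ± 0.50 on the log2 scale that lay short of the threshold (edgeR, adjusted p = 0.0997). At 1 month the levels were 3.96 to 11.2 CPM in WT and 5.30 to 6.70 CPM in KO, a fold change of -0.16 (adjusted p = 0.828). Without KO replicate 3, the library that stood apart, Il1rn and Il18 passed at 1 week, and without KO replicate 1, Ccl8 did. The agonist Il1b had 2, 18 and 9 reads in the KO libraries of 1 week and at most 3 in any other library.

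Il34, a second ligand of Csf1r that supports tissue macrophages, had 4.01, 2.57 and 6.22 CPM in WT and 16.1, 9.61 and 31.5 CPM in KO at 1 week. The groups did not overlap, and the fold change of 2.15 ± 0.56 did not pass (edgeR, adjusted p = 0.158). At 1 month it had 17.9 to 28.4 CPM in WT and 15.8 to 24.2 CPM in KO (-0.22, adjusted p = 0.588). Its receptor Csf1r, outside the symbol rule, had 26.6 to 52.0 CPM in WT and 78.6 to 174 CPM in KO at 1 week, and 197 to 388 CPM in WT and 118 to 160 CPM in KO at 1 month. Csf1r passed at 1 month, at -1.13, and Il34 did not. Il18, an epithelial cytokine of the IL-1 family, had 4.25, 4.20 and 4.87 CPM in WT and 15.7, 18.7 and 6.95 CPM in KO at 1 week (1.63 ± 0.45, adjusted p = 0.171, edgeR), and -0.10 at 1 month. Il11, a cytokine of the Il6 family, had 3.04 to 20.3 CPM and log2 fold changes of -0.01 and -0.33.

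Il17rd (chr14:27038941-27107286, plus strand), a receptor-like chain known as Sef that dampens fibroblast growth factor signalling, was the receptor chain that passed at 1 month. It had 3.34, 3.06 and 9.18 CPM in WT and 6.78, 10.7 and 23.4 CPM in KO. Replicate 3 of each genotype, which made up batch 3, had the highest level of its group, so the groups overlapped across batches. Within batch 2 the difference was 1.18 and within batch 3 it was 1.26, and the fit with batch gave 1.40 ± 0.33 (SE, edgeR, adjusted p = 0.0436). At 1 week the log2 fold change was -0.00 ± 0.46. The difference between both times, 1.42, did not pass (adjusted p = 0.203).

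None of the abundant receptor chains passed at either time in edgeR, while DESeq2 called Il11ra1 at 1 week. Il17re had 266, 242 and 260 CPM in WT and 251, 226 and 43.7 CPM in KO at 1 week, so KO replicate 3 alone lay far below the rest, and 215 to 314 CPM in WT and 217 to 304 CPM in KO at 1 month (-0.02, adjusted p = 0.963). Il11ra1 had 46.7, 34.6 and 29.03 CPM in WT and 77.8, 70.7 and 74.2 CPM in KO at 1 week, without overlap (1.01 ± 0.28, adjusted p = 0.172, edgeR). At 1 month it had 104, 121 and 133 CPM in WT and 144, 124 and 387 CPM in KO, where replicate 3 stood high (0.68, adjusted p = 0.163). The gene overlaps Galt on the same strand and has a near-identical copy in Il11ra2, so its counts are uncertain. Il4ra, the receptor chain for Il4 and Il13, lay higher in all KO libraries of 1 week (46.1 to 96.5 CPM, beside 20.8 to 37.0 CPM in WT; 1.19, adjusted p = 0.214), and Il6st had fold changes of 0.44 and -0.29. Il18r1, the receptor of Il18, had 5.90, 7.74 and 2.75 CPM in WT and 13.6, 11.98 and 10.2 CPM in KO at 1 month. These did not overlap, and the fold change of 1.20 ± 0.34 lay short of the threshold (edgeR, adjusted p = 0.079).

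Of the 46 genes tested at both times, 18 (39.1%) had a fold change above 0 at 1 week and below 0 at 1 month, beside 30.1% of 11919 genes. The reverse order held for 11, and 17 (37.0%) had the same sign at both, beside 41.1% of all genes. CC chemokines had a median log2 fold change of 1.92 at 1 week (7 tested) and -1.15 at 1 month (8 tested), and interleukins and antagonists had 1.24 (10 tested) and -0.28 (8 tested). Whether the genotype effect differed between 1 week and 1 month was tested in a fit of all 12 libraries, in which none of 59 genes passed, beside 0.0% of 13122 genes. At an unadjusted p under 0.05 there were 21 of the 59 (35.6%), beside 19.9% of all genes. DESeq2 called 11 of the members, and over all genes too it called many where edgeR called none. The largest differences were those of Ccl8 (-5.60, adjusted p = 0.0879), Il33 (-4.04, adjusted p = 0.103) and Ccl9 (-3.81, adjusted p = 0.099) in edgeR, followed by Il1rl2, the receptor for IL-36 (-3.42, adjusted p = 0.133), and Ccl6 (-3.10, adjusted p = 0.104). Without KO replicate 1, 2 or 3 of 1 week, 5, 5 and 6 genes passed, and Ccl8, Ccl9, Il1rn and Il33 were among them each time. Time and batch cannot be told apart, since all libraries of 1 week form batch 1.

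**Figure D4:**
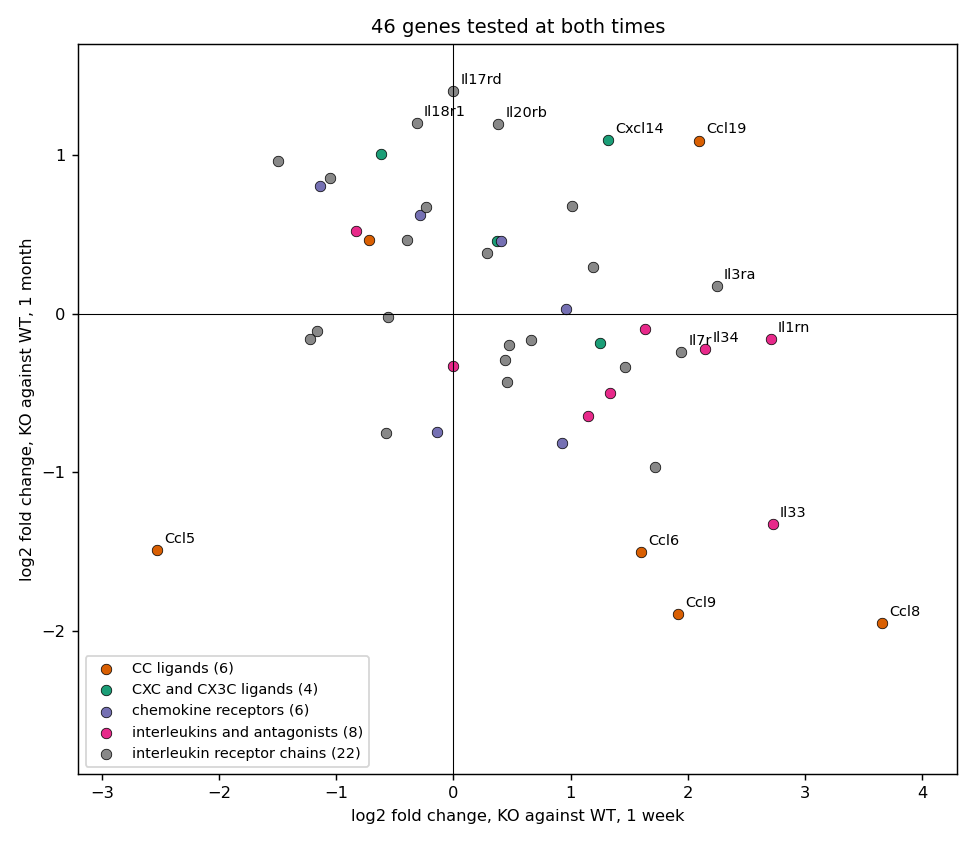
Log2 fold change of KO against WT at 1 week (horizontal axis) and at 1 month (vertical axis) for the 46 genes tested at both times, coloured by class. Ccl6, Ccl8, Ccl9 and Il33 lie at the lower right, above 0 at 1 week and below 0 at 1 month, and Cxcl14 lies at the upper right.

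The pathway was also followed in 54 genes outside the symbol rule: atypical receptors and related chemokines, other cytokines and chains that share interleukin receptors, and 30 genes of signal relay. At 1 week 0 of 42 tested genes passed, and at 1 month 1 of 41 was higher and 1 lower. The gene that was higher was Csf2ra, the receptor chain for GM-CSF, with 5.31, 6.12 and 23.9 CPM in WT and 16.9, 27.5 and 45.5 CPM in KO (1.56 ± 0.30, SE, edgeR, adjusted p = 0.0249). It overlapped between groups, with replicate 3 highest in each. The lower gene was Csf1r. Of the relay genes, among them the Jak kinases, the Stat factors, Myd88 and the NF-kB subunits, 0 of 27 passed at 1 week and 0 of 26 at 1 month, with median log2 fold changes of 0.12 and 0.07.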

How the data were processed

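RNA of 12 libraries was read from their 3′ ends (QuantSeq, oligo-dT primed, sense strand), per the labels' protocols. The deposited tables hold raw counts per gene, 1 table for each time; Bowtie, TopHat, HTSeq, DESeq2 and mm10 are named in the submitters' processing notes, and versions and annotation are not given in the sources used here. Groups follow the genotype and time in the labels, each title carries its own animal number, and replicates were numbered in accession order. The labels give 3 batches: all 1-week libraries are batch 1, replicates 1 and 2 of 1 month are batch 2, and replicate 3 of both genotypes is batch 3. The title and the library name of WT replicate 3 at 1 month carry different numbers, and the library name was used.

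The members and lists were chosen with earlier results of these data known. Each time was fitted with edgeR 4.0.16 (R 4.3.3; quasi-likelihood test, robust, TMM, filterByExpr), with batch at 1 month, with two-sided p-values adjusted by Benjamini-Hochberg across every gene tested (threshold 0.05). The interaction used all 12 libraries. CPM are TMM-scaled within a time, the SE is the absolute log2 fold change over the root of F, and within-batch differences use log2(CPM + 1). Depth was 5580961 to 9497088 counts per library, and the floor of 3 counts covers counting error only. No pair of replicates agreed within sampling noise. Coordinates come from GENCODE M21 (GRCm38, the build called mm10), with 137 members matched by symbol and 4 by a RefSeq synonym. Promoters come from RefSeq (GRCm38.p6), which listed 105 members. The steps were tested on simulated data in which 200 genes were changed by 2 on the log2 scale. The test recovered 16% of them at 1 week, 92.5% at 1 month and 8.5% in the interaction, with 0, 20 and 2 false calls. A gene that did not pass at 1 week or in the interaction is therefore not shown to be unchanged.

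Genes were named by rule: members called at either time, the most abundant of each class, those of smallest p in each fit, those apart at both times, and fixed ligand and receptor pairs; 1 of these genes is not reported here. Il1b, Il1r1, Il1rl2, Il7r, Il13, Il17a, Il17c, Il17ra, Il17rc, Il1a, Il20rb, Il2rg, Ccl3, Ccl4, Ccl19, Ccl20, Ccr1, Ccr8, Cxcl13 and the members at 0 that share copies were named after their values were seen. Alternatives were DESeq2 1.42.0, other scaling, other filters on low counts, dispersions without the robust option, each library left out, no batch term and batch 2 alone.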

Additional observations from a re-analysis of the deposited data

Results flagged for a closer look

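Ccl8 had every KO library above every WT library at 1 week and below every WT library at 1 month, with log2 fold changes of 3.66 and -1.95. The difference between both effects was -5.60 on the log2 scale (edgeR, adjusted p = 0.0879) and did not pass. Il33 likewise lay above WT at 1 week and below WT at 1 month in every KO library, with log2 fold changes of 2.72 and -1.32. Its difference was -4.04 (edgeR, adjusted p = 0.103), which did not pass either. Each is shown because all libraries of 1 time lie on 1 side and all of the other time on the opposite side.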

How the results depend on the processing

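Depth limits the set: 85 of 142 genes had too few reads for a test at either time. No paired analysis was possible because replicate numbers follow accession order and pair no mice. Over the named values at single genes, 614 alternatives kept their direction and side of the threshold, 31 passed newly, 29 no longer passed and 31 reversed, none of the last being of a value that had passed; the cause was not tested. At 1 week the count of members called, 0, was 11 with DESeq2 and 0 to 2 with a library left out. The count over all genes, 8, was 62 without a filter on low counts, 883 with DESeq2 and 0 to 320 with a library left out, the latter without KO replicate 3. At 1 month the 5 members called were 11 without the filter, 0 without the batch term (9 at an unadjusted p under 0.05), 8 in batch 2 alone and 0 to 8 with a library left out. Without the batch term the adjusted p was 0.385 for Ccl6 and Il33, 0.298 for Ccl9, 0.341 for Cxcl14 and 0.652 for Il17rd. The 269 genes called at 1 month (121 higher, 148 lower) were 561 with library size alone (456 higher, 105 lower), 1276 without the filter, 731 with DESeq2, 0 without the batch term, 1474 in batch 2 alone and 45 to 1522 with a library left out. The interaction gave 3 members without the filter, 11 with DESeq2 and 0 to 6 with a library left out, and over all genes 137, 836 and 0 to 440. Without KO replicate 3 of 1 month, a choice made after seeing the data, 7 members lay above WT and 9 below without overlap. The share over all genes was not computed for this choice, and a group with fewer libraries overlaps less often for any gene. These counts therefore say nothing particular about the members. Across alternatives the log2 fold changes at 1 month ran from -1.85 to -1.08 for Ccl6, -2.06 to -1.60 for Ccl9, 0.86 to 1.31 for Cxcl14, -1.43 to -1.10 for Il33 and 1.21 to 1.64 for Il17rd. The values that reversed were, with a library left out, Ccr2 (-0.51 to 0.22), Il11 (-0.44 to 1.25) and Il17rd (-0.42 to 0.24) at 1 week, and Cxcr6 (-0.38 to 0.52), Il11 (-0.53 to 0.016), Il17re (-0.082 to 0.067), Il18 (-0.35 to 0.064), Il1rl1 (-0.66 to 0.13) and Il1rn (-0.41 to 0.16) at 1 month. With library size alone Cxcl16 (0.036), Il17re (0.21), Il18 (0.12) and Il1rn (0.069) reversed at 1 month, in batch 2 alone Cxcr6 (-0.37), Il11 (0.020), Il1rl1 (0.13) and Il1rn (0.16) did, Il17re was 0.027 without the filter, and Il11 at 1 week was 0.00036 with the size factors of DESeq2.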

Other observations

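Single libraries carried extreme levels of several of these genes. KO replicate 3 of 1 week was the highest library of its time for 19 of the 55 genes tested and the lowest for 14 (60.0% in all), beside 72.9% over all genes. Il17rc, the chain that pairs with Il17ra to bind Il17a and Il17f, had 5.32 CPM there and 24.0 to 46.8 CPM in the other 5 libraries of 1 week, while Il17ra had 100 CPM there and 17.6 to 27.8 CPM in the others. Il2rg, the chain shared by the receptors of Il2, Il4 and Il7, had no read there, and Il7r, its partner for Il7, had 22.9 CPM beside 1.52 to 6.35 CPM.

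KO replicate 3 of 1 month was the highest library of its time for 12 of the 48 genes tested and the lowest for 16 (58.3% in all), beside 45.4% over all genes. Cxcl13, the chemokine that draws B cells, had 8.11 CPM in WT replicate 3 of 1 month and 0.135 to 1.67 CPM in the other 11 libraries. Ccl19, which draws T cells and dendritic cells through Ccr7, had log2 fold changes of 2.09 (adjusted p = 0.328) and 1.09 (adjusted p = 0.249) in edgeR, with overlap of the groups at both times.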
